A study of Mus musculus with 9 samples.

Results

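The genes described here are 28 genes of cholesterol synthesis and sterol control, matched by symbol among the 54491 genes of an RNA sequencing table of mouse colon. They comprise 8 enzymes of the mevalonate and isoprenoid steps, 12 enzymes from squalene to cholesterol, 4 sterol sensing genes and 4 genes of sterol transport and esterification. The animals were C57BL/6 mice, 15 to each of 3 groups, which were 6 weeks old at the start and whose colon was sampled at postnatal day 98. The first group ate a high-fat diet and was gavaged (dosed by stomach tube) with the gut bacterium Papillibacter cinnamivorans (HFD+Pc, libraries 1, 3 and 4), the second ate the high-fat diet alone (HFD, libraries 1, 2 and 4), and the third was the control group (libraries 1, 2 and 3). Gavage is named for the HFD+Pc group alone, so gavage and bacterium cannot be told apart, and what the control mice ate is not given in the labels. Nothing says that each library came from its own mouse, so p-values measure the spread between libraries.

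Cells make cholesterol from acetyl-CoA through mevalonate, the isoprenoid diphosphates, squalene and lanosterol. The transcription factor SREBP2, encoded by Srebf2, switches on nearly all of these enzymes when membranes are short of sterol. The escort protein SCAP carries it out of the endoplasmic reticulum, and the INSIG proteins hold SCAP back when sterol is plentiful. Insig1 is itself an SREBP target, whereas Insig2 is not induced by SREBPs. Intestinal epithelium makes cholesterol, takes it up from the lumen, stores it as esters and exports it.

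Promoters of 4 genes on which the results turn are shown, since INSIG1 and INSIG2 do the same work under different transcriptional control, Soat1 was the member that rose in HFD, and Hmgcs1 is the enzyme gene with the highest level. The sequences are RefSeq windows of 300 bases on build GRCm38.p6, from 250 bases before to 50 bases after the start, given 5′ to 3′ on the gene's strand. Capitals mark CCAAT on either strand (the box bound by NF-Y, a partner of SREBP) and TCACNCCAC on either strand (a core of the sterol regulatory element), which do not overlap here. The windows are chr13:119690101-119690400 on the plus strand for Hmgcs1, chr5:28071162-28071461 on the plus strand for Insig1, chr1:121332540-121332839 on the minus strand for Insig2 and chr1:156474279-156474578 on the minus strand for Soat1. Insig2 has 3 annotated starts, and the window shown is the farthest upstream.
Hmgcs1: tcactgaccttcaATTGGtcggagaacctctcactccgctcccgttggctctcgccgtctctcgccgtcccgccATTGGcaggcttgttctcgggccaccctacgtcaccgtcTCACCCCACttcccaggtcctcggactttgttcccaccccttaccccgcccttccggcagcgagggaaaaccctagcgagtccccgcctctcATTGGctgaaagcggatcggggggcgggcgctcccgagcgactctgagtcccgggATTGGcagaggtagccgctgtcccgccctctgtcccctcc
Insig1: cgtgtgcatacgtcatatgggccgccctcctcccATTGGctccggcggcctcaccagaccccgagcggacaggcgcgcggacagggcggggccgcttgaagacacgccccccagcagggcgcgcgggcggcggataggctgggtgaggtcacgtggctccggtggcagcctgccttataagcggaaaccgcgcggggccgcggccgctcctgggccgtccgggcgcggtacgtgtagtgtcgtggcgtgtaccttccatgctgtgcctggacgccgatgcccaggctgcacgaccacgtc
Insig2: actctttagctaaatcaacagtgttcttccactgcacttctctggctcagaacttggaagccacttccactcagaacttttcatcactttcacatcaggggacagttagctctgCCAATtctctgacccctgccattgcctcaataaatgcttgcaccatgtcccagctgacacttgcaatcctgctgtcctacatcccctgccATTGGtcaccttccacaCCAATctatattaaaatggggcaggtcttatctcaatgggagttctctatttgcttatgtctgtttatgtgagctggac
Soat1: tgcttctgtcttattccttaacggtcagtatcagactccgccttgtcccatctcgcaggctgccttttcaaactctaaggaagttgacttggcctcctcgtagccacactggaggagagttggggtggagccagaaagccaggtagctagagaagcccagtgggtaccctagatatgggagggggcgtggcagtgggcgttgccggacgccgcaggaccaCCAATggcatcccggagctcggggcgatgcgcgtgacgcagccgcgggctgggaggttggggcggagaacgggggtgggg

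TCACNCCAC was found in 1 of the 24 members with a window, Hmgcs1, where it begins at position -137 from the start, and in 1.24% of all 32851 windows. CCAAT was found in 21 of these 24 members, in 21 of their 30 windows, and in 37.4% of all windows. It occurs 4 times in the Hmgcs1 window, 3 times in that of Insig2, and a single time each in those of Insig1 and Soat1. Fdps, Fdft1, Sqle and Stard4 were not matched to a window.

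Values are FPKM, which divide the fragments of a gene by its length and by the size of the library, so levels can be set side by side between genes. Differences are on the log2(FPKM + 1) scale, tested with limma over 17907 genes that reached 0.5 FPKM in 3 or more libraries, and called at a Benjamini-Hochberg adjusted p below 0.05. All 28 members passed that filter, and 26 of them, all but Fdps and Npc1l1, did so in every library. Npc1l1 passed through HFD+Pc and control libraries alone. Relative depth differed at most 1.34-fold between libraries, and the total depth is unknown. The HFD libraries stood apart in position genes: Hoxd13, Hoxb13, Hoxa13 and Hoxd12, which mark the distal end of the gut, summed to 2.47 to 12.3 FPKM in HFD+Pc, 241 to 263 in HFD and 0.50 to 34.2 in control, with 34.2 in control library 1. Their 4 proximal counterparts (Hoxb5 to Hoxb8) summed to 56.9 to 87.7 FPKM in HFD+Pc, 3.59 to 4.06 in HFD and 21.4 to 121 in control, with the lowest control value again in library 1. Epithelial genes were abundant in all 9 libraries, with 6 of them summing to 3211 to 6374 FPKM. Of 4 small intestine genes, Lct stayed at or below 0.0916 FPKM in all libraries, while Fabp6 ranged from 1.60 to 466 FPKM, Apoa4 from 0 to 35.6 and Sis from 0 to 6.37, each highest in control library 2. Mitochondrial transcripts took 21.6% to 34.8% of summed FPKM in HFD+Pc, 9.69% to 13.5% in HFD and 16.6% to 25.2% in control, which bears on the scaling of all other genes.

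**Figure D1:**
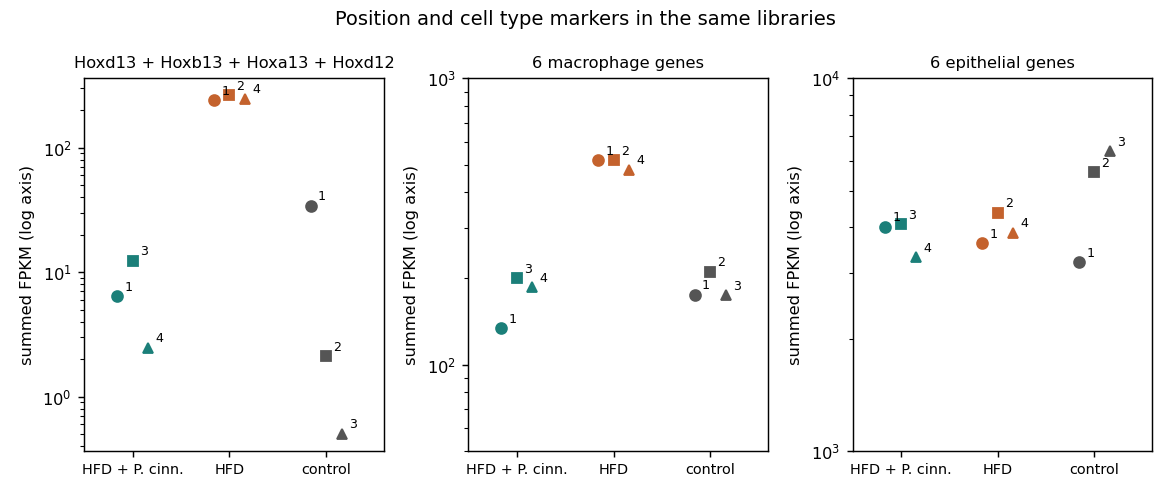
Summed FPKM (log axes) of 4 distal Hox genes, 6 macrophage genes and 6 epithelial genes in each library, in the order HFD+Pc, HFD and control, numbered by replicate. The HFD libraries are the highest in the first and second panels, and control library 1 lies between HFD and the other control libraries in the first.

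Few members were called. Of 28 members 2 were called in HFD against control (limma), which is 7.14% beside 19.7% of all tested genes, and of these 1 was higher, beside 10.6% of all genes, and 1 lower, beside 9.11%. At an unadjusted p below 0.05 there were 5 members, beside 34.7% of all genes. For HFD+Pc against HFD 1 member was called, higher, which is 3.57% beside 12.1% called in either direction, 4.54% higher and 7.6% lower among all genes, and 5 members had an unadjusted p below 0.05, beside 26.8%. Limma called 0 members in HFD+Pc against control, where 4 had an unadjusted p below 0.05, beside 20% of all genes, and 1.11% of all genes were called, 0.262% higher and 0.843% lower. The split of all calls depends on the scaling: HFD against control gave 1903 higher and 1632 lower genes, and 3375 and 898 with TPM scaling, and the counts for HFD+Pc against HFD were 813 higher and 1361 lower, and 625 and 2020 with TPM scaling. The comparisons share libraries, HFD those of the first and second and control those of the first and last, and are not independent.

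The genes called were Insig2 and Soat1. Insig2, which encodes the INSIG protein that SREBPs do not induce, measured 26.6, 22.9 and 24.6 FPKM in HFD+Pc, 12.0, 11.0 and 11.2 in HFD, and 15.4, 25.5 and 28.4 in control. The HFD libraries were the 3 lowest of all 9 and did not overlap either other group. Insig2 averaged 11.4 ± 0.537 FPKM in HFD and 23.1 ± 6.82 FPKM in control (SD, n = 3 each), a log2 difference of -0.91 (SE 0.20, limma adjusted p = 0.0148). It averaged 24.7 ± 1.85 FPKM in HFD+Pc against the same HFD mean, a log2 difference of 1.05 (SE 0.20, limma adjusted p = 0.0108). Between HFD+Pc and control the difference was 0.13, with a 95% interval from -0.33 to 0.59. The call against control was lost without HFD library 2, HFD library 4 or control library 2, with limma adjusted p of 0.056, 0.0589 and 0.0551, and the call of HFD+Pc against HFD without HFD library 2 (0.0523). The lowest control value, 15.4 FPKM, belongs to library 1, in which Hoxa13 was at 26.0 FPKM beside 2.06 and 0.385 FPKM in control libraries 2 and 3. The other distal genes of library 1 were far below HFD. Hoxb13 was at 7.73 FPKM (118 to 134 in HFD), Hoxd13 at 0.450 (72.6 to 94.3) and Hoxd12 at 0 (4.62 to 6.36). 

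Insig1 encodes the partner that is itself induced by SREBPs. It measured 33.6, 28.8 and 31.0 FPKM in HFD+Pc, 42.9, 50.5 and 38.1 in HFD, and 29.1, 48.7 and 51.8 in control. The HFD+Pc libraries lay below all HFD libraries, and HFD and control overlapped. The log2 difference of HFD+Pc against HFD was -0.47 (SE 0.22, limma adjusted p = 0.199), and that of HFD against control was 0.05, with a 95% interval from -0.44 to 0.54. With TPM scaling the difference of HFD+Pc from HFD was -0.68 and passed (limma adjusted p = 0.037). That scaling moved the median of all genes from -0.01 to -0.17. Without control library 1, which enters the pooled spread, the difference was -0.47 and passed (limma adjusted p = 0.0313).

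The ratio of Insig1 to Insig2 FPKM within a library, which does not depend on how libraries are scaled, separated all 3 groups. It was 1.264, 1.257 and 1.261 in HFD+Pc, 3.57, 4.59 and 3.39 in HFD, and 1.89, 1.91 and 1.83 in control. No library overlapped another group. Control library 1, low in both genes, had a ratio (1.89) between those of control libraries 2 and 3 (1.91 and 1.83). On the log2 scale the ratio averaged 1.93 ± 0.233 in HFD and 0.91 ± 0.033 in control (SD, n = 3 each), a difference of 1.02. The HFD+Pc mean was 0.33 ± 0.0041, a difference of -1.60 from HFD and of -0.57 from control. Each of these comparisons had a two-sided exact permutation p of 0.1, the smallest that 3 against 3 libraries allow, and 0.15 adjusted over 6 ratio tests, so none can pass 0.05. Neither gene has an overlapping gene or a near-identical transcript in the GENCODE M21 annotation.

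**Figure D2:**
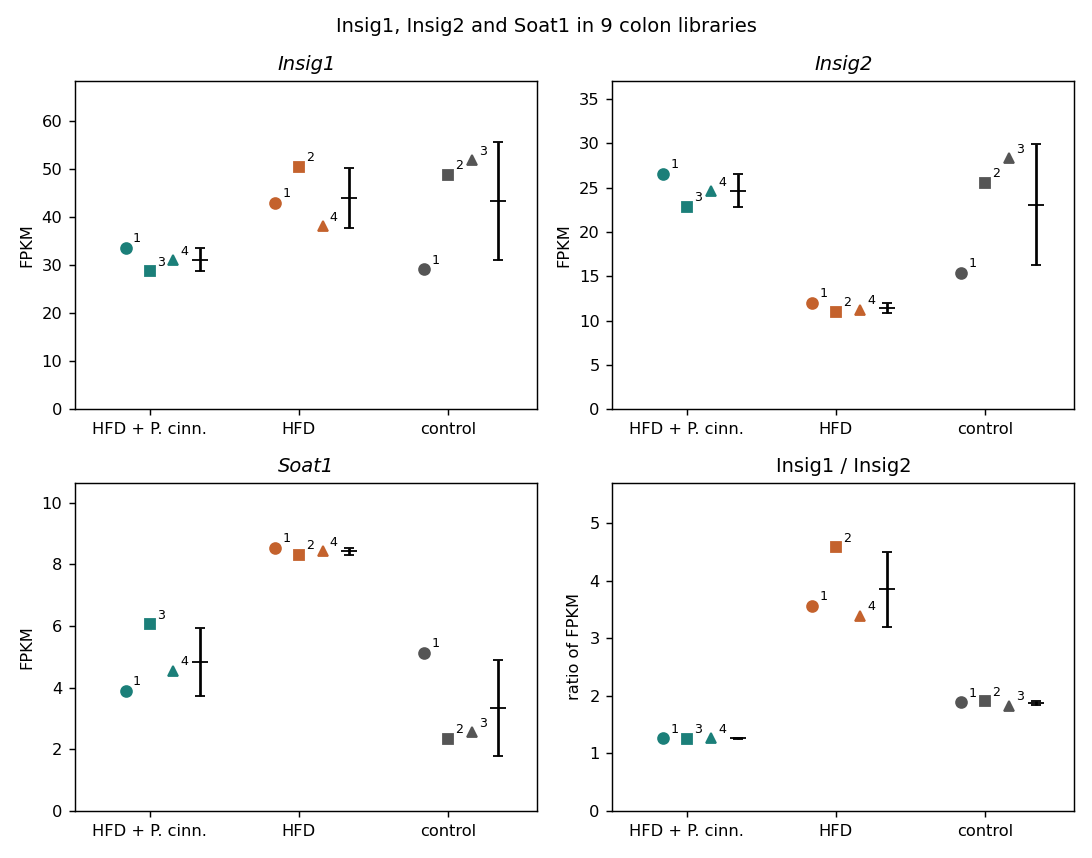
FPKM of Insig1, Insig2 and Soat1 and the ratio of Insig1 to Insig2 by library, with groups in the order HFD+Pc, HFD and control and points numbered by replicate. Black bars give the mean and SD of 3 libraries. Insig2 is lowest and Soat1 highest in the 3 HFD libraries, and the ratio falls into 3 separate ranges.

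Soat1 encodes the acyltransferase that turns free cholesterol into esters for storage in lipid droplets, and it is prominent in macrophages. It measured 3.89, 6.06 and 4.55 FPKM in HFD+Pc, 8.53, 8.31 and 8.43 in HFD, and 5.13, 2.34 and 2.55 in control. Every HFD library was above all 6 others. The mean was 8.43 ± 0.110 FPKM in HFD and 3.34 ± 1.55 FPKM in control (SD, n = 3 each), a log2 difference of 1.17 (SE 0.23, limma adjusted p = 0.00948), and the call held with each library left out in turn (adjusted p 0.0005 to 0.0394). The HFD+Pc mean was 4.83 ± 1.11 FPKM, a log2 difference of -0.71 from HFD (SE 0.23, limma adjusted p = 0.0863), which did not pass. Without control library 1 that difference passed (limma adjusted p = 0.00961), as it did in a fit of the 6 HFD+Pc and HFD libraries alone (0.0166).

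In the same libraries the 6 macrophage genes summed to 134 to 200 FPKM in HFD+Pc, 479 to 519 in HFD and 175 to 211 in control, with none of them at 0 throughout. Of these 6 genes 5 were called higher in HFD than in control, and all 6 were called lower in HFD+Pc than in HFD. The 5 B cell genes summed to 5.48 to 9.17 FPKM in HFD+Pc, 80.9 to 107 in HFD and 2.30 to 13.7 in control. The highest control value of Soat1, 5.13 FPKM, was in library 1. There the 4 distal Hox genes summed to 34.2 FPKM, beside 2.12 and 0.502 in control libraries 2 and 3 and 241 to 263 in HFD. The macrophage sums of control libraries 1, 2 and 3 were 175, 211 and 175 FPKM. The part of these immune cells and of tissue position in the Soat1 and Insig2 results was not tested. In bulk tissue, more cells of a type and more RNA per cell cannot be told apart.

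Of the 20 synthesis enzymes, limma called 0 in each of the 3 comparisons. An unadjusted p below 0.05 was found for 3 in HFD against control (Pmvk, Mvk and Lbr), for 3 in HFD+Pc against HFD (Mvd, Ggps1 and Ebp) and for 3 in HFD+Pc against control (Pmvk, Mvd and Mvk), beside 34.7%, 26.8% and 20% of all tested genes. Over all 28 members the median log2 difference of HFD against control was -0.17, with 20 negative and 8 positive values, beside -0.0011 for all tested genes, but with TPM scaling the median was 0.07 and that of all genes shifted to 0.20. The sign of the members' median therefore depends on the scaling. With either scaling that median lay below the median of all genes. The median was -0.05 in HFD+Pc against HFD, beside -0.01 for all genes, and -0.18 in HFD+Pc against control, beside -0.01.

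**Figure D3:**
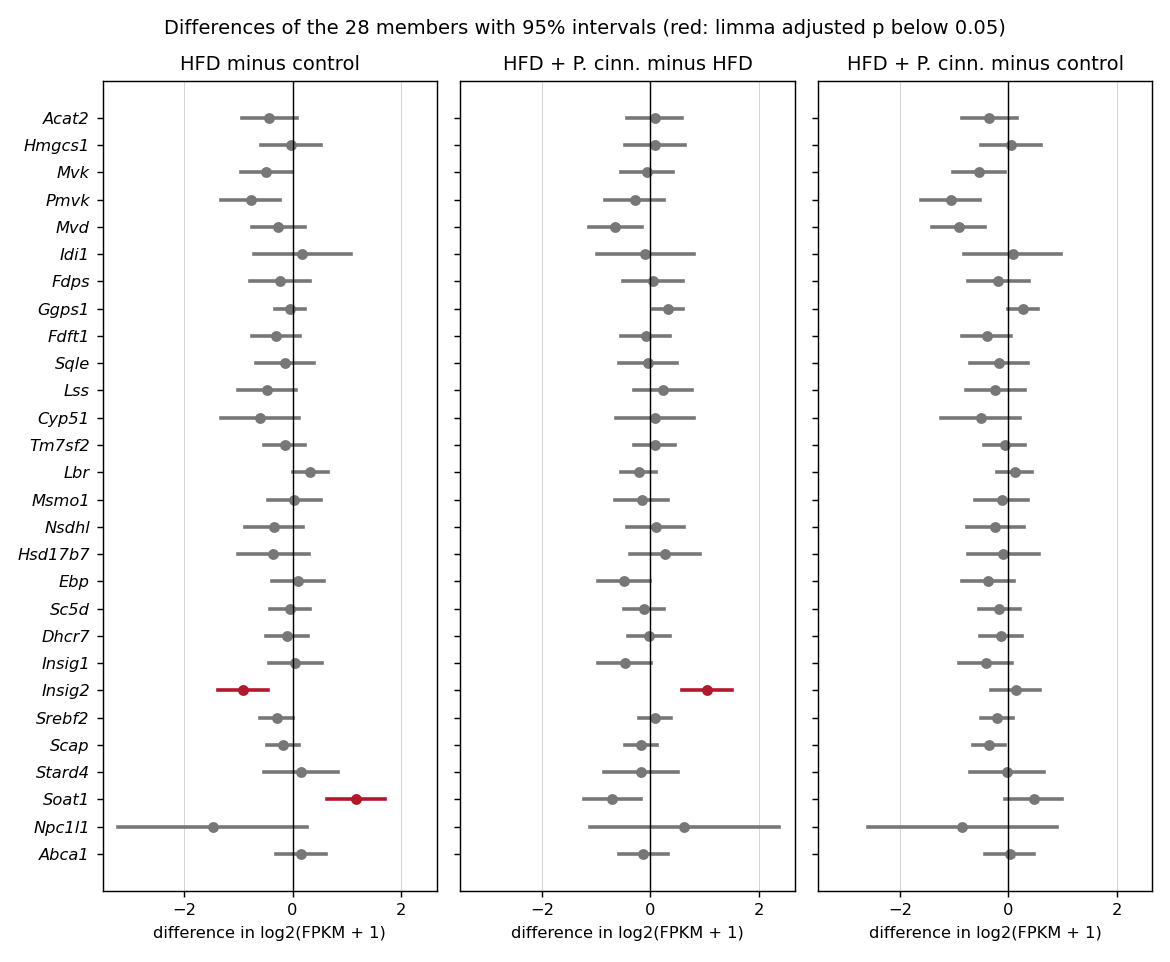
Difference in log2(FPKM + 1) with its 95% interval for each of 28 members in 3 comparisons, named above each panel as the first group minus the second. Red marks limma adjusted p below 0.05. Insig2 and Soat1 are red in the first panel, Insig2 alone in the second and no gene in the third.

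In the mevalonate steps, Hmgcs1, the synthase that makes HMG-CoA, had the highest mean of all 28 members. It measured 62.2, 50.8 and 46.5 FPKM in HFD+Pc, 40.4, 60.6 and 50.8 in HFD, and 36.6, 52.3 and 69.0 in control. The groups overlapped throughout, and the 95% interval of the difference between HFD and control ran from -0.58 to 0.52. Its exons share 458 bases with a gene on the opposite strand, and the table's counting is not stated to use strand.

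Pmvk, which adds the second phosphate to mevalonate, measured 4.13, 5.11 and 3.02 FPKM in HFD+Pc, 4.11, 8.01 and 4.07 in HFD, and 8.86, 10.1 and 9.64 in control. All control libraries were above all others. The log2 difference from control was -0.77 in HFD (SE 0.24, limma adjusted p = 0.0525) and -1.07 in HFD+Pc (SE 0.24, limma adjusted p = 0.0653). Neither passed, but without HFD library 2 the difference of HFD from control was -1.05 and passed (adjusted p = 0.0131).

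Mvd, the decarboxylase that yields isopentenyl diphosphate, measured 9.62, 10.0 and 7.41 FPKM in HFD+Pc, 11.8, 20.2 and 13.1 in HFD, and 15.4, 16.6 and 21.9 in control. The HFD+Pc libraries were the 3 lowest of 9. The log2 difference of HFD+Pc was -0.65 against HFD (limma adjusted p = 0.0876) and -0.91 against control (limma adjusted p = 0.0736). With TPM scaling the difference from HFD was -0.85 and passed (limma adjusted p = 0.0325), but that scaling moved the median of all genes from -0.01 to -0.17.

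Mvk, the mevalonate kinase, averaged 5.59 ± 1.43 FPKM in HFD+Pc, 5.77 ± 0.414 in HFD and 8.65 ± 2.49 in control. Idi1, which isomerises isopentenyl diphosphate, measured 4.47, 8.20 and 3.12 FPKM in HFD+Pc, 5.19, 5.01 and 5.83 in HFD, and 2.10, 5.25 and 8.05 in control, so that control libraries spanned both extremes of the HFD values. Ggps1, which makes geranylgeranyl diphosphate for protein prenylation, averaged 10.5 ± 1.31 FPKM in HFD+Pc, 8.14 ± 0.822 in HFD and 8.42 ± 0.159 in control, and its HFD+Pc libraries lay above every control library. Without HFD+Pc library 3 its difference from HFD just passed (0.42, limma adjusted p = 0.04995). Acat2, the cytosolic thiolase, averaged 13.1 ± 2.16 FPKM in HFD+Pc, 12.5 ± 3.12 in HFD and 17.2 ± 4.23 in control. Fdps, the farnesyl diphosphate synthase, was listed at only 0.487 to 1.56 FPKM. Copies make several of these values uncertain. Fdps has 6 near-identical annotated transcripts of other genes, Idi1 has 4, and Acat2 matches the neighbouring thiolase gene Acat3 at 98.3% over 1441 bases.

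Among the enzymes from squalene on, Sqle, the epoxidase that commits squalene to sterols, measured 15.3, 17.4 and 12.8 FPKM in HFD+Pc, 12.2, 18.1 and 16.8 in HFD, and 12.4, 17.3 and 23.5 in control. All 3 groups overlapped, and the 95% interval of HFD against control was -0.68 to 0.40. Cyp51, the lanosterol demethylase, had the highest mean of these 12 and the widest control spread, with 21.5, 30.9 and 20.1 FPKM in HFD+Pc, 17.4, 27.8 and 22.9 in HFD, and 21.5, 35.1 and 53.4 in control. Fdft1, the squalene synthase, ranged from 20.1 to 40.0 FPKM and shares 774 bases with Ctsb on the opposite strand. The lanosterol synthase Lss stayed between 2.47 and 6.76 FPKM.

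The demethylation enzymes Msmo1, Nsdhl and Hsd17b7 averaged 21.3, 14.2 and 4.79 FPKM over all libraries. Nsdhl averaged 13.3 ± 0.200 FPKM in HFD+Pc, 12.4 ± 0.390 in HFD and 16.8 ± 6.03 in control, so its control spread exceeded the distance between groups. Ebp, the sterol isomerase, measured 19.9, 24.2 and 18.8 FPKM in HFD+Pc and 28.5, 31.7 and 28.9 FPKM in HFD. These groups did not overlap, and the log2 difference was -0.49 (SE 0.21, limma adjusted p = 0.18). For Sc5d, the desaturase, and Dhcr7, the last reductase, the highest library was 1.54 and 1.70 times the lowest.

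Lbr and Tm7sf2 encode interchangeable sterol reductases, and LBR also anchors chromatin at the nuclear envelope. Lbr measured 8.39, 10.5 and 8.17 FPKM in HFD+Pc, 10.5, 10.6 and 10.7 in HFD, and 7.39, 7.50 and 9.96 in control. The HFD libraries were above all control libraries, and the log2 difference was 0.33 (SE 0.14, limma adjusted p = 0.132). It passed with TPM scaling (0.58, limma adjusted p = 0.0354), which moved the median of all genes from -0.0011 to 0.20. Tm7sf2 measured 4.58, 4.28 and 6.18 FPKM in HFD+Pc, 3.95, 4.63 and 5.45 in HFD, and 4.38, 5.38 and 6.12 in control. The ratio of Tm7sf2 to Lbr was 0.377, 0.439 and 0.507 in HFD and 0.593, 0.718 and 0.614 in control, without overlap, a log2 difference of -0.55 (two-sided exact permutation p = 0.1, the smallest possible, 0.15 adjusted over 6 tests). The ratio in HFD+Pc was 0.546, 0.408 and 0.756 and overlapped both other groups. Tm7sf2 shares 532 bases with Vps51 on its own strand, and Lbr shares 440 bases with Dnah14 on the opposite strand.

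**Figure D4:**
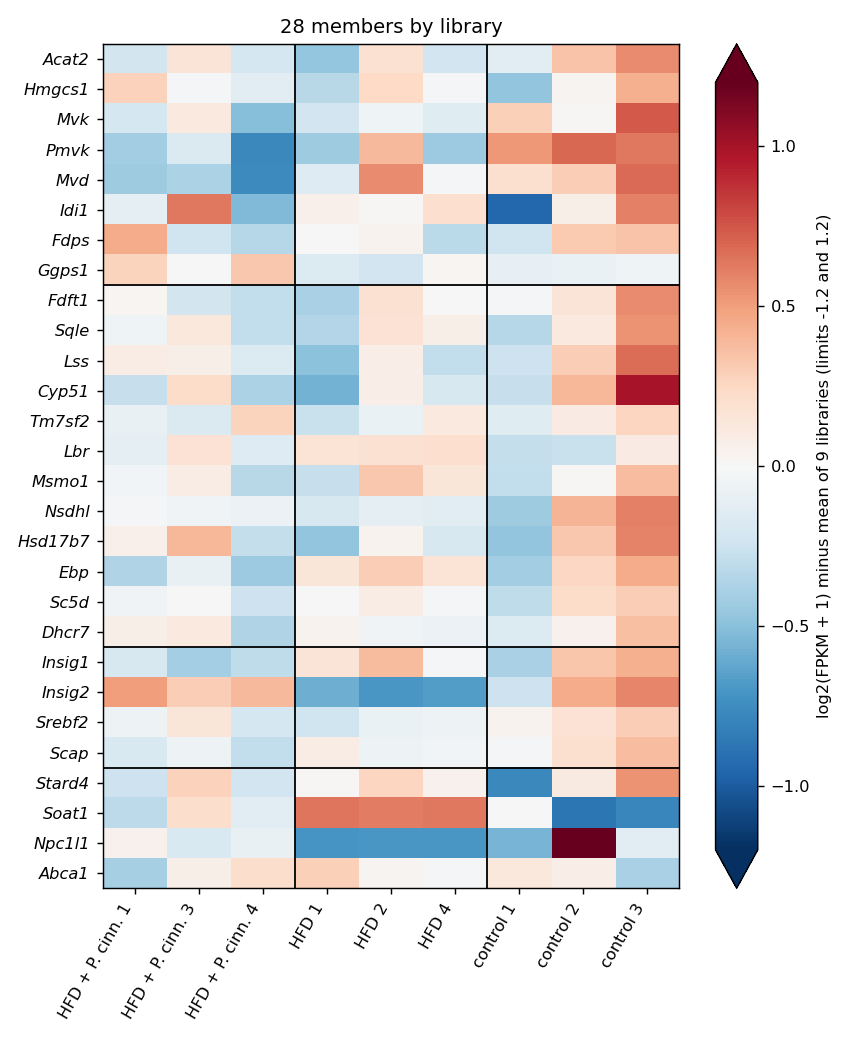
Each cell is a member's log2(FPKM + 1) in a library minus its mean over 9 libraries, from blue (lower) to red (higher), with members in rows by role and libraries in columns in the order HFD+Pc, HFD and control. Control library 3 is red for most enzymes and control library 1 blue, Insig2 is blue and Soat1 red in all 3 HFD libraries.

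The enzymes varied together between libraries of the same group. In control, library 3 had the highest value of its group for 19 of 20 enzymes and library 1 the lowest for 19, beside 38.6% and 43.4% of all tested genes. In HFD, library 2 was the highest for 15 of 20 and library 1 the lowest for 14, beside 32.8% and 31.6%. In HFD+Pc, library 3 was the highest for 13 and library 4 the lowest for 17, beside 37.0% and 31.8%. The median enzyme lay 0.33 above its group mean in control library 3 and 0.37 below it in control library 1, a deviation of -0.37, on the log2 scale. The median SD over the 20 enzymes was 0.212 in HFD+Pc, 0.230 in HFD and 0.344 in control, beside 0.198, 0.125 and 0.235 for all tested genes.

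Among 6 epithelial genes, control library 3 was the highest of its group for 4 and control library 1 the lowest for 4, HFD library 2 the highest for 6 and HFD library 1 the lowest for 4, and HFD+Pc library 3 the highest for 4 and HFD+Pc library 4 the lowest for 6. Krt18 went against this in control, with its highest value, 263 FPKM, in library 1. The sum of the 6, most of it from Krt8 and Krt19, was 6374 FPKM in control library 3 and 3211 in control library 1, 4356 in HFD library 2 and 3609 in HFD library 1, and 4058 in HFD+Pc library 3 and 3306 in HFD+Pc library 4. The smooth muscle genes ran the other way in control, with sums of 1268 FPKM in library 3 and 6614 in library 1. The part of tissue makeup in the shared enzyme levels was not tested.

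**Figure D5:**
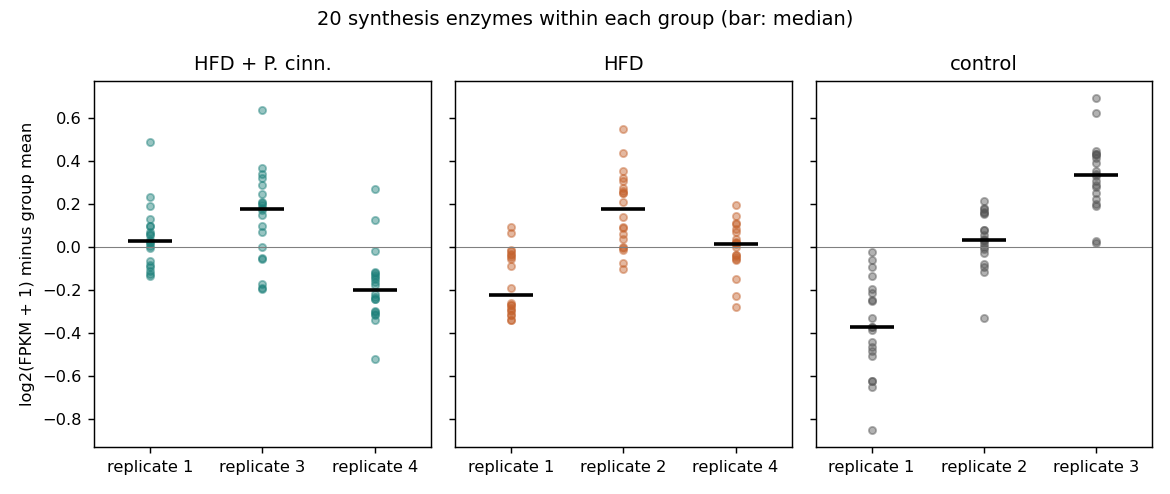
Each point is 1 of 20 synthesis enzymes in a library, as log2(FPKM + 1) minus the mean of its group, and the black bar is the median of the enzymes, at 0.33 in control library 3 and -0.37 in control library 1. Most points of a library fall on the same side of 0.

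Leaving control library 1 out, with limma pooling the spread so that the remaining 2 control libraries are assumed to vary like the other groups, raised the members called in HFD against control to 5, beside 25.7% of all genes. They were Insig2 (-1.17, adjusted p = 0.000244), Soat1 (1.45, adjusted p = 0.0005), Nsdhl (-0.65, adjusted p = 0.00277), Lss (-0.72, adjusted p = 0.0314) and Cyp51 (-0.93, adjusted p = 0.0368). The directions among all genes were 12.2% higher and 13.5% lower. Members called in HFD+Pc against HFD then numbered 4, beside 20.4% of all genes (9.41% higher, 11% lower), namely Insig2 higher and Soat1, Insig1 and Ebp lower. Those called in HFD+Pc against control numbered 5, beside 6.74% of all genes (1.82% higher, 4.91% lower), with Soat1 higher and Mvd, Nsdhl, Ebp and Insig1 lower.

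Neither upstream regulator was called. Srebf2, which encodes SREBP2, measured 26.2, 30.2 and 23.4 FPKM in HFD+Pc, 22.9, 25.8 and 26.1 in HFD, and 28.1, 31.0 and 33.7 in control. All HFD libraries were below all control libraries, but the log2 difference of -0.30 did not pass (SE 0.13, limma adjusted p = 0.146). Scap, its escort, averaged 5.66 ± 0.524 FPKM in HFD+Pc, 6.52 ± 0.429 in HFD and 7.59 ± 1.19 in control, and the HFD+Pc libraries lay below all others. Groups that do not overlap were common: in HFD against control 2 members were higher and 5 lower without overlap, Npc1l1 among the lower, beside 21.9% and 20.1% of all tested genes. For HFD+Pc against HFD 3 were higher, Npc1l1 among them, and 5 lower, beside 18.7% and 20.3%. In HFD+Pc against control 1 was higher and 3 lower, beside 9.86% and 11.9%. Npc1l1 passed the filter only through the groups in which it was higher than in HFD. Its place in the counts that involve HFD is therefore not free of the filter.

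Among the transport genes, Npc1l1, the brush border receptor for luminal cholesterol, had its lowest values in HFD. It measured 0.753, 0.484 and 0.586 FPKM in HFD+Pc, 0.0358, 0.0374 and 0.0384 in HFD, and 0.145, 12.8 and 0.532 in control. HFD lay below every other library, and control library 2 stood far above all. After scaling by relative depth the values stood in whole-number ratios, and the smallest whole numbers that fit, which may be multiplied by a common factor, were 47, 36 and 46 fragments in HFD+Pc, 3 in each HFD library, and 11, 867 and 36 in control. The log2 difference of HFD from control was -1.48 and rested on control library 2: it was -0.35 without that library, and -3.20 with a pseudocount of 0.1. That of HFD+Pc from HFD was 0.63, and 2.35 with a pseudocount of 0.1. No test of these differences is given, since Npc1l1 entered the fit only through the groups in which it was higher than in HFD. The 4 small intestine genes, Lct among them, summed to 73.3 to 157 FPKM in HFD+Pc, 11.1 to 30.6 in HFD and 1.81 to 508 in control. Control library 2 had the highest Fabp6, 466 FPKM (1.60 to 155 in the other libraries), and the highest Apoa4, 35.6 FPKM (0 to 2.22). Lct was at 0.0824 FPKM there and highest, at 0.0916, in HFD library 1. Apoa1, which is not among these 4, was at 471 FPKM in control library 2 (0.271 to 25.6 in the others). The 5 adipocyte genes also had their highest sum there, 357 FPKM, beside 1.37 to 123 in the other libraries. The part of tissue position and makeup in the Npc1l1 value of control library 2 was not tested.

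Abca1, which exports cholesterol to apolipoproteins under liver X receptor control, measured 2.62, 4.01 and 4.53 FPKM in HFD+Pc, 4.80, 3.88 and 3.69 in HFD, and 4.21, 4.05 and 2.65 in control. All groups overlapped, and the 95% interval of HFD against control was -0.30 to 0.61. Stard4, a soluble sterol carrier, measured 22.3, 32.5 and 22.6 FPKM in HFD+Pc, 26.9, 32.0 and 27.7 in HFD, and 15.2, 28.7 and 39.1 in control, with the control libraries at both ends of the range.

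Further genes of the pathway were read from 5 lists of its neighbouring steps, and their counts stand beside the shares of all tested genes called, 10.6% higher and 9.11% lower in HFD against control and 4.54% higher and 7.6% lower in HFD+Pc against HFD. Of 13 tested genes of sterol synthesis and SREBP processing, limma called 1 higher and 0 lower for HFD against control. It called 0 in HFD+Pc against HFD, where 2 had an unadjusted p below 0.05, beside 26.8% of all genes. The gene called was Rnf139, an endoplasmic reticulum ubiquitin ligase, at 7.21, 8.13 and 8.53 FPKM with HFD alone and 3.48, 4.35 and 4.98 in control libraries (log2 difference 0.77, limma adjusted p = 0.00471). Of 8 genes that use isoprenoids, Pggt1b, a subunit of the enzyme that attaches geranylgeranyl groups to proteins, rose in HFD (0.57, adjusted p = 0.00579) and was lower in HFD+Pc than in HFD (-0.40, adjusted p = 0.0353). Nus1, a subunit of the enzyme that makes dolichol precursors, fell in HFD (-0.95, adjusted p = 0.0211).

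Of 13 genes of uptake, esterification and trafficking, 4 fell and 0 rose in HFD against control, which is 30.8% lower beside 9.11% of all tested genes. Nceh1, a hydrolase that releases cholesterol from esters, measured 15.3, 14.1 and 15.8 FPKM in HFD+Pc, 4.45, 3.92 and 4.49 in HFD, and 5.56, 14.1 and 16.1 in control. It fell in HFD against control (-1.18, limma adjusted p = 0.0297) and was higher in HFD+Pc than in HFD (1.60, limma adjusted p = 0.0108). The sterol-binding protein gene Stard5 likewise fell in HFD (-1.64, limma adjusted p = 0.00497) and was higher in HFD+Pc than in HFD (1.40, limma adjusted p = 0.0128). Soat2, the esterifying enzyme of enterocytes, fell in HFD (-0.81, limma adjusted p = 0.0489). It was at 0.774 to 1.26 FPKM in HFD and at 1.75, 4.11 and 1.73 FPKM in control libraries 1, 2 and 3. The last was Npc1, a lysosomal cholesterol exporter (-0.62, adjusted p = 0.0496). Between HFD+Pc and HFD 2 were higher and 1 lower. The lower one was Npc2, the soluble lysosomal sterol carrier (-1.25, adjusted p = 0.00292). Of the genes of these lists called in HFD against control, Nceh1, Stard5, Npc1 and Nus1 had control library 1 nearest to HFD. Its values were 5.56, 9.86, 3.23 and 29.1 FPKM. For Rnf139 and Pggt1b it was the control library farthest from HFD, at 3.48 and 3.79 FPKM. For Soat2 control library 3 was the nearest.

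Of 8 genes of efflux and liver X receptor signalling, limma called 0 in HFD against control and 1 in HFD+Pc against HFD. In each of these comparisons 5 had an unadjusted p below 0.05, beside 34.7% and 26.8% of all tested genes. Abcg5, a subunit of the apical sterol export pump, measured 1.27, 0.885 and 0.483 FPKM in HFD+Pc, 10.2, 8.94 and 9.24 in HFD, and 0.304, 9.88 and 0.609 in control. It was lower in HFD+Pc than in HFD (-2.50, limma adjusted p = 0.0445), and its difference of HFD from control did not pass (1.88, limma adjusted p = 0.0824). Control library 2 lay within the HFD range. Of 3 tested genes of oxysterol synthesis, 0 were called by limma in HFD against control or in HFD+Pc against HFD, and 0 had an unadjusted p below 0.05. In all 5 lists limma called 0 genes for HFD+Pc against control. At an unadjusted p below 0.05 the synthesis, isoprenoid, efflux, uptake and oxysterol lists had 3, 0, 1, 1 and 0, beside 20% of all genes.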

How the data were processed

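RNA of 9 mouse colon libraries was sequenced. The authors deposited FPKM values per gene in 1 table. The submitters' processing notes name the aligner HISAT2 2.0.5 and the build GRCm39. Counting tool, annotation and strand setting: not given in the sources used here. Symbols were found for 52093 of 54491 identifiers. The members and all gene lists were chosen with earlier results of these data known. Tests used limma 3.58.1 in R 4.3.3 with a variance trend on log2(FPKM + 1), 1 fit over 3 groups and no covariate. The fit was tested on simulated data in which genes varied independently and with equal spread in all groups. The enzymes here varied together and the spread differed between groups, so the simulation does not cover these conditions. Library values are given in full for members called, members with an unadjusted p below 0.01 and 11 members chosen for their roles. Cyp51, Ebp and Stard4 were added after their values were seen. The deposited FPKM carry no read totals. Relative depth came from genes with low values in a pair of libraries: once depth was removed, 98.8% to 99.3% of their ratios matched a ratio of whole numbers of at most 20 to a tolerance of 0.0005 (natural log). Near-identical transcripts (at least 90% identity over 300 bases, minimap2) and exon overlaps come from GENCODE M21. The 17 alternative settings comprise 9 that leave out a library each.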

Additional observations from a re-analysis of the deposited data

How the results depend on the processing

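Over 17 alternative settings, the fall of Insig2 in HFD against control kept its direction and was called in 13 (log2 difference -1.17 to -0.65), the rise of Soat1 in 16 (1.01 to 1.45) and the higher Insig2 in HFD+Pc against HFD in 15 (0.86 to 1.12). No called member changed direction in these settings. The data did not show whether replicate numbers pair the libraries. Deviations from group means correlated between -0.156 and 0.187 over the 6 same-numbered pairs. Pairs with different numbers gave -0.168 to 0.155, and correlations within such small groups cannot exclude pairing. With the number as a replicate block limma called 1985, 1288 and 0 genes (2401 at an unadjusted p below 0.05 in the last) in HFD against control, HFD+Pc against HFD and HFD+Pc against control, beside 3535, 2174 and 198 without it. It called 0 members in the first and second comparison, with limma adjusted p of 0.084 and 0.0718 for Insig2 and 0.0554 for Soat1 in the first. At an unadjusted p below 0.05 there were 4 and 6 of 28 members, beside 5578 and 4547 of 17907 genes. The cause of these and the following changes was not tested.

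With TPM scaling the members' median was 0.072 in HFD against control and -0.23 in HFD+Pc against HFD, beside 0.20 and -0.17 for all genes. In HFD+Pc against HFD 3 of 28 members were called, beside 2645 of 17986 genes. In HFD+Pc against control 22 genes were called. With mitochondrial and immunoglobulin genes removed the members' median was 0.0424 in HFD against control and 0.0164 in HFD+Pc against control. The medians of all genes were 0.17 and 0.14. Of 28 members 2 were then called in HFD+Pc against HFD, beside 2211 of 18670 genes, and 317 genes in HFD+Pc against control. With only the 6 libraries compared, 3316 of 16962 genes and 4 of 27 members were called in HFD+Pc against HFD. In HFD+Pc against control 10 genes were called. In HFD+Pc against control 15 genes were called without a filter and 46 with quantile normalization. Leaving out 1 library, genes called ranged from 1612 to 4527 in HFD against control, 991 to 3603 in HFD+Pc against HFD and 0 to 1187 in HFD+Pc against control. Members called ranged from 1 to 5, 0 to 4 and 0 to 5, and their medians from -0.32 to -0.07, -0.13 to 0.08 and -0.40 to -0.0467. Each highest count came without control library 1, and the lowest counts of genes without HFD library 4 (1612), HFD library 1 (991) and, among others, HFD+Pc library 1 (0 by limma, 3085 unadjusted). The difference in log2 ratio of Insig1 to Insig2 ranged from 0.89 to 1.11, -1.68 to -1.47 and -0.59 to -0.56, and that of Tm7sf2 to Lbr from -0.65 to -0.44, 0.11 to 0.55 and -0.44 to 0.01.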
